A study of Rattus norvegicus with 4 samples.

Results

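The cytosolic ribosomal protein genes were followed in pancreatic islets of rat pups after growth restriction in the womb. They were taken as every non-control probe whose gene name on the array begins with Rpl or Rps and a number, is Rplp0, Rplp1 or Rplp2, or is Rpsa, leaving out the Rps6k kinases. This gave 149 of 30367 probes and 86 of 26456 gene names, 52 of the large subunit and 34 of the small subunit. The name rule also takes in 3 names that are no ribosomal protein gene, which are Rps19bp1, a protein that binds Rps19, and the pseudogenes Rpl27-ps1 and Rps2-ps7.

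Islet RNA was compared between 4 samples with intrauterine growth restriction (IUGR) and 4 control samples, all from Sprague Dawley offspring at postnatal day 14. The dams of the IUGR samples had both uterine arteries tied at embryonic day 18, and the control dams had sham surgery, so dams of both groups had surgery and delivered naturally. Amplified cDNA of 1 IUGR and 1 control sample was hybridised to each of 4 two-colour arrays, with IUGR in Cy5 on arrays 1 and 2 and in Cy3 on arrays 3 and 4. Array 1 held IUGR 2 and control 1, array 2 held IUGR 1 and control 2, array 3 held IUGR 4 and control 3, and array 4 held IUGR 3 and control 4. Sex, litter and the number of pups per sample are not in the labels. P-values thus measure the spread between these samples only, and 4 arrays limit the precision of every value. In islet tissue as a whole, fewer cells of a type and less RNA per cell cannot be told apart.

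A ribosome is built from ribosomal RNA and a fixed set of proteins, most of them present in 1 copy, and its genes are among the most strongly transcribed in any cell. Their mRNAs begin with a run of pyrimidines, the 5′ terminal oligopyrimidine (TOP) tract, through which mTOR signalling sets how well they are translated. In beta cells, whose main task is to make insulin, this machinery carries a heavy load of protein synthesis. Some ribosomal proteins also act outside the ribosome, as when free Rpl5 and Rpl11 bind Mdm2 and release p53.

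The islet label was checked against marker genes. Of 8 beta cell markers, 7 were tested, all well above background in every one of the 8 channels, and so were 9 acinar cell markers of 10 listed. The log2 of the summed beta cell marker signal was 18.42 to 19.85 in IUGR samples and 18.40 to 19.46 in controls. That of the acinar cell markers was as high, at 18.90 to 20.18 and 18.50 to 19.69. The samples thus held acinar signal beside that of islet cells. The median signal of the IUGR channel over that of the control channel was 1.68 on the log2 scale on array 1, and -1.58, -2.42 and -1.55 on arrays 2, 3 and 4. Array 1 thus had the brighter IUGR channel and the other arrays the brighter control channel. Over all 20012 features tested, which are not independent replicates, array 1 had correlations of r = 0.13 with array 2, -0.23 with array 3 and -0.30 with array 4.

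Ribosomal protein probes were among the brightest on the arrays. Of the 100 brightest features tested, 25 were ribosomal protein genes, and of the 500 brightest, 71 were. The median rank of a ribosomal protein gene by mean signal was 161 of 20012. Of the 149 probes, 144 were well above background in all 8 channels, and none had a saturated spot on any array. Over the brightest probe of each of the 85 genes tested, median raw signals lay between 16141 intensity units, in control 1 on array 1, and 217166, in control 3 on array 3. Among the dim probes of the family were those of Rpl3l, a muscle paralogue of Rpl3, and the pseudogene Rpl27-ps1. Rpl27-ps1 cleared the background in 0 of the IUGR channels and in 1 control channel and was the 1 name not tested, which left 85 genes.

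No ribosomal protein gene passed the test for a difference between IUGR and control islets. The log2 ratio of IUGR over control had a median of -0.013 over the 85 genes, with 37 genes above 0 and 48 below, and ran from -0.63 for Rpl23a to 0.76 for Rps26. The median over all 20012 features was 0.014. The large subunit had a median of -0.017 (51 genes) and the small subunit -0.01 (34 genes). By array, the median of the 85 genes was 0.14, 0.08, -0.20 and -0.12 on arrays 1 to 4, with an SD of 0.16. Arrays 1 and 2, with IUGR in Cy5, were above 0, and arrays 3 and 4, with IUGR in Cy3, were below it.

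**Figure D1:**
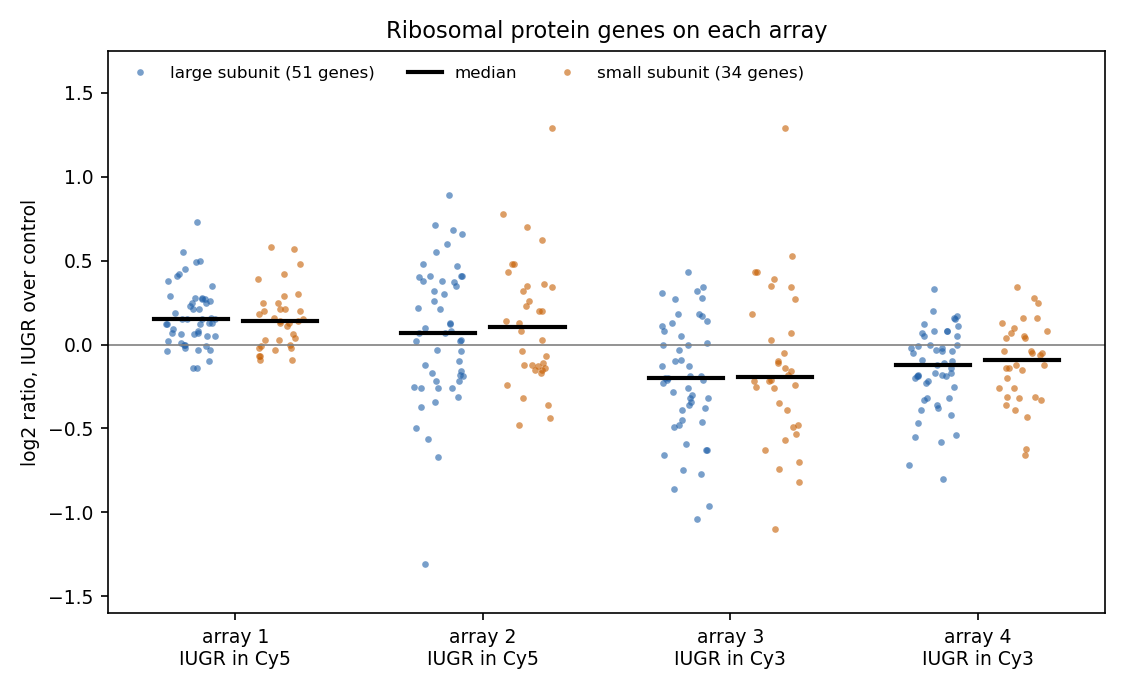
Log2 ratios of IUGR over control on each of the 4 arrays, 1 point per ribosomal protein gene (51 large subunit, 34 small subunit), with bars at the medians. The medians of both subunits lie above 0 on arrays 1 and 2 and below 0 on arrays 3 and 4.

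A linear model in limma, with the dye as a second term, was used to test each gene. At a Benjamini-Hochberg adjusted p under 0.05 it called 0 ribosomal protein genes higher and 0 lower, as it did among all features (0% in either direction). The smallest adjusted p was 0.339, for members and for all features alike. At an unadjusted p under 0.05 there were 5 ribosomal protein genes above 0, against 7.13% of all features and 5.88% of the members. These were Rpl24, Rps27a, Rps26, Rpl36al and Rpl6. A further 4 lay below 0, against 6.54% of all features and 4.71% of the members, and these were Rpl10a, Rpl10, Rpl13a and Rpl11. These 9 of 85 became 21 without array 1, 2 without array 2, 0 without array 3 and 7 without array 4. They became 2 with the scanner software's processed signals or with no offset in the background correction, 4 with median centring, and 3 with a covariate for channel brightness. The 95% confidence interval of the ratio lay within 0.5 of 0 on the log2 scale for 66 of the 85 genes and within 1 for 83, and its median half-width was 0.23.

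All 4 arrays gave a ratio above 0 for 10 ribosomal protein genes (11.8%), against 11.0% of all features. These were Rps26, Rps25, Rpl37, Rpl39, Rpl24, Rpl36al, Rpl36, Rplp1, Rps27a and the pseudogene Rps2-ps7. All 4 gave one below 0 for 3 genes (3.53%), against 9.69% of all features, and these were Rps19, Rplp2 and Rps15a. With the channels of the 4 arrays taken as separate samples, every IUGR sample exceeded every control sample for 5 genes (5.88%), against 1.38% of all features. They were Rps26, Rps27a, Rpl24, Rpl36 and Rps2-ps7. The reverse held for 0 ribosomal protein genes, against 1.62% of all features.

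Rps26, a protein of the small subunit near the exit of the mRNA channel, had the highest ratio. Its normalized log2 signal was 14.00, 13.93, 13.97 and 14.25 in IUGR samples 1 to 4 and 13.72, 12.70, 12.96 and 13.72 in control samples 1 to 4. The groups did not overlap, and controls 2 and 3 were the low samples. The ratio was 0.76 ± 0.25 (SE, n = 4 arrays), or 1.70-fold, with a limma adjusted p of 0.339 and an unadjusted p of 0.0323. Here and below, SE is limma's moderated standard error beside the dye term, and every limma adjusted p given for a gene is from the test over all 20012 features. The array ratios were 0.21, 1.29, 1.29 and 0.25, so arrays 2 and 3 carried most of it. The ratio was 0.49 without array 2 and 0.50 without array 3, 0.40 with median centring and 0.39 with the brightness covariate.

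The Rps26 result rests on 1 probe, at chr7:1920388-1920447 on the minus strand of rn4, and the Rpl23a and Rps27a results on pairs. The probe sequences are shown because the extremes of the family and its repeat measurements depend on them. Capitals mark the 21 bases that the Rps27a probes share, and the probe A_64_P144208 is shown by its first 30 bases.
Rps26 A_64_P049884: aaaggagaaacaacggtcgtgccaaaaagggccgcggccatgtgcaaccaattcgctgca
Rps27a A_64_P367214: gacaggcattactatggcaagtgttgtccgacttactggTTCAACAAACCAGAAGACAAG
Rps27a A_64_P144208: cTTCAACAAACCAGAAGACAAGtagttgtg
Rpl23a A_64_P007169: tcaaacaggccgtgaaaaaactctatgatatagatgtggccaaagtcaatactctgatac
Rpl23a A_64_P325514: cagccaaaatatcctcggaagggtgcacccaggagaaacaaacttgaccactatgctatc

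Rps27a is made as a fusion with ubiquitin, from which it is cut. Its log2 signal was 15.86, 15.68, 15.56 and 15.75 in IUGR samples 1 to 4 and 15.39, 15.15, 15.32 and 15.51 in control samples 1 to 4. Every IUGR sample lay above every control sample. The ratio was 0.37 ± 0.12 (SE, n = 4 arrays), with a limma adjusted p of 0.339. It was -0.03 with median centring and 0.22 with the brightness covariate. The second Rps27a probe, at chr14:110559622-110559681 and overlapping the first at chr14:110559660-110559719, gave 0.39 ± 0.13.

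Rpl23a, a protein at the mouth of the exit tunnel of the large subunit, had the lowest ratio. The IUGR samples 1 to 4 had log2 signals of 13.15, 13.32, 13.65 and 13.42, and the control samples 13.17, 14.46, 14.46 and 13.97. Control 1 lay among the IUGR samples, and the groups overlapped. The ratio was -0.63 ± 0.27 (SE, n = 4 arrays), with a limma adjusted p of 0.339. It was -0.27 without array 2 and -0.99 without array 1, and -0.17 with the brightness covariate. Its probe lay at chr10:64454047-64454106 of rn4. The second probe, whose 60 bases are split over 1283 bases of the genome, gave -0.51 ± 0.19.

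Rpl24, a large subunit protein at the bridge to the small subunit, had log2 signals of 16.78, 16.73, 16.77 and 16.84 in the IUGR samples and 16.31, 16.31, 16.70 and 16.69 in the controls. The groups did not overlap, and controls 1 and 2 were the low ones. The ratio was 0.28 ± 0.07 (SE, n = 4 arrays), with a limma adjusted p of 0.339. With median centring of each array it was -0.14. The other Rpl24 probe, 1800 bases away, gave -0.12 ± 0.09, so the pair did not share a sign.

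Rpl36al, a paralogue of Rpl36a, had log2 signals of 14.26, 13.91, 14.27 and 14.41 in the IUGR samples and 13.80, 13.85, 13.98 and 14.12 in the controls. The groups overlapped through IUGR 2. Its ratio was 0.28 ± 0.10 (SE, n = 4 arrays). Rps25, which helps the small subunit start on internal entry sites, had array ratios of 0.13, 0.62, 0.53 and 0.04 and a mean of 0.33 ± 0.13 (SE, n = 4 arrays). Rpl36 had 0.13, 0.26, 0.11 and 0.20 and a mean of 0.17 ± 0.08, and Rpl37 had 0.12, 0.22, 0.31 and 0.08 and a mean of 0.18 ± 0.08. The spread over arrays was narrow for these large subunit genes, and neither passed the test. The pseudogene Rps2-ps7 had a mean ratio of 0.26 ± 0.10. With median centring the ratios of Rpl36al, Rps25, Rpl36, Rpl37 and Rps2-ps7 lay between -0.22 and -0.03.

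Rpl10 joins the large subunit last, in the cytoplasm, and completes its active centre. It had log2 signals of 16.76, 16.59, 16.23 and 16.12 in IUGR samples 1 to 4 and 16.21, 16.73, 16.98 and 17.04 in control samples 1 to 4. Controls 3 and 4 were the highest samples and IUGR 4 the lowest, and the groups overlapped. Its ratio was -0.31 ± 0.09 (SE, n = 4 arrays), from array ratios of 0.38, 0.02, -0.86 and -0.80. Rpl10a, of the stalk at the other side of the subunit, had log2 signals of 15.27, 15.30, 15.30 and 15.06 in the IUGR samples and 15.23, 15.39, 15.83 and 15.88 in the controls. Its groups overlapped too, with control 1 among the IUGR samples and controls 3 and 4 farthest above them. The ratio was -0.35 ± 0.09 (SE, n = 4 arrays), with a limma adjusted p of 0.339, and its second probe gave -0.26 ± 0.09.

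For Rpl10 the signal depended on the probe. The brighter probe, at chrX:160336740-160336799 of rn4, gave the ratio above, and a second probe starting 94 bases away gave 0.11, 0.09, -0.02 and -0.19 on arrays 1 to 4. Both are shown, the second by its first 30 bases, since they were designed to the same transcript.
Rpl10 A_64_P010456: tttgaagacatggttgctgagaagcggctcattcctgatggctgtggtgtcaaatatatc
Rpl10 A_44_P513994: tgcattcctgaaggcttccacagtgcgctc

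Controls 3 and 4 also stood high for other large and small subunit genes. They are the 2 controls that were in Cy5, so dye and sample cannot be told apart here. Control 2, in Cy3, was close to them for Rpl13a. Rpl13a, which is also a part of the complex that silences inflammatory mRNAs, had log2 signals of 16.05, 16.08, 16.07 and 15.77 in the IUGR samples and 15.83, 16.42, 16.52 and 16.62 in the controls. Its ratio was -0.36 ± 0.13 (SE, n = 4 arrays). Rps3a had array ratios of 0.18, -0.44, -0.70 and -0.39, and a mean of -0.34 ± 0.13. Rps18 had 0.20, -0.11, -0.82 and -0.31, and a mean of -0.26 ± 0.12. Rps27, a zinc finger protein of the small subunit, had the wide set 0.39, -0.15, -1.10 and -0.43, with a mean of -0.32 ± 0.16. In each of these genes array 1 was above 0 and the others below it. The median ratios of the alpha, delta and PP, T and NK, and B cell markers were also lower on arrays 3 and 4 than on arrays 1 and 2. The part of these cells in the ribosomal ratios was not tested. The 4 alpha cell markers had median ratios of 0.77, 0.02, -0.32 and -0.52 on arrays 1 to 4, with summed log2 levels of 16.38 to 17.55 in IUGR samples and 16.53 to 17.64 in controls. The 3 delta and PP cell markers had -0.14, -0.02, -0.86 and -0.52, with sums of 16.92 to 17.62 and 16.76 to 17.68. All 7 of these were well above background in every channel. The median ratio of the 6 T and NK cell markers (6 of 6 tested) was 0.01, -0.16, -1.29 and -0.69 on arrays 1 to 4. Their summed log2 level ran from 9.76 to 10.09 in IUGR samples and from 10.12 to 12.29 in controls, and 3 of the 6 were well above background in all 8 channels. The 4 B cell markers had median ratios of -0.00, -0.18, -1.08 and -0.81. Their sum ran from 8.87 to 9.84 in IUGR samples and from 8.87 to 11.05 in controls, and 2 of the 4 were well above background in all 8 channels. The 3 red blood cell markers tested, of 4 listed, had the opposite order, at -0.37, 0.23, 1.38 and 1.29, with sums of 15.58 to 17.37 in IUGR samples and 15.61 to 15.99 in controls. Endothelial cell markers also rose over the arrays, at -0.41, 0.05, 0.48 and 0.58. The beta cell markers had medians of 0.20, 1.06, 0.39 and 0.23, and the acinar cell markers 0.51, 0.17, 1.55 and -0.24. Among the beta cell markers, Ins1, Ins2 and Iapp were above 0 on arrays 1 and 2 and below 0 on arrays 3 and 4. Pdx1, Mafa, Slc2a2 and Nkx6-1 did not have this order. Duct cell markers had medians of -0.00, -0.78, -0.30 and -0.62, and macrophage markers 0.30, 0.75, 0.25 and 0.27. For fibroblast and stellate cell markers they were -0.05, -0.62, 0.00 and 0.51. Among the alpha cell markers Ttr was above 0 on all 4 arrays, unlike their median.

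**Figure D2:**
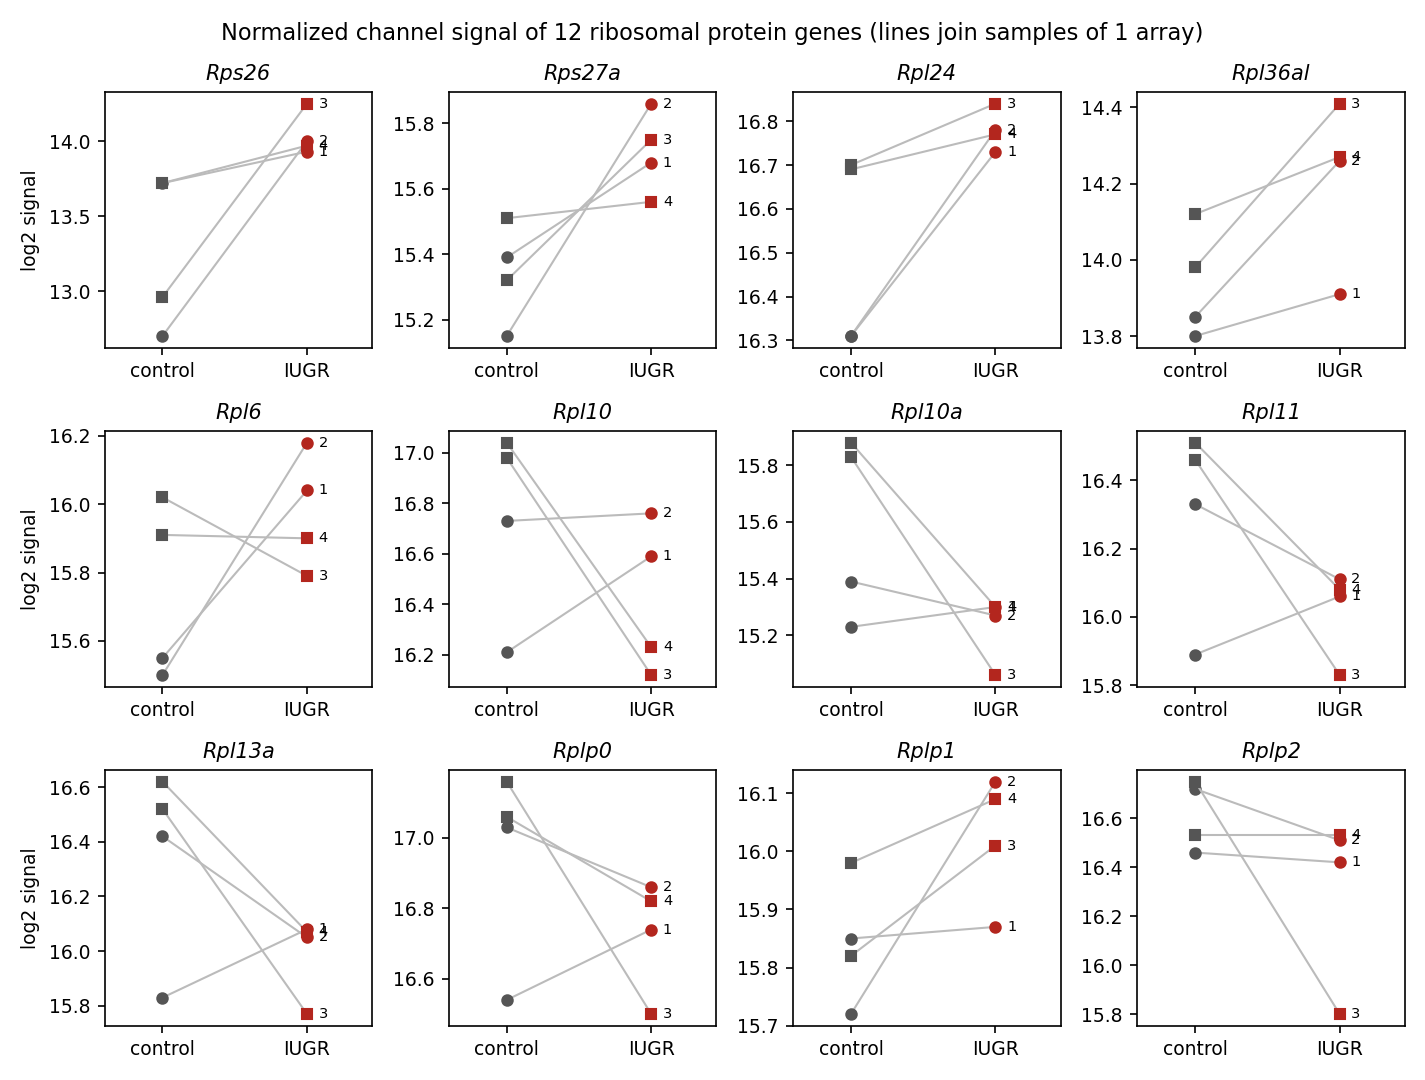
Normalized log2 signal of 12 ribosomal protein genes in the control and IUGR samples, with lines joining the 2 samples of an array (number at the right) and circles for arrays 1 and 2, squares for arrays 3 and 4. Each panel has its own vertical range. Rps26, Rps27a and Rpl24 are the 3 panels in which the groups do not overlap.

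The proteins of the P stalk recruit the elongation factors to the ribosome. Rplp0, its base, had log2 signals of 16.86, 16.74, 16.82 and 16.50 in the IUGR samples and 16.54, 17.03, 17.16 and 17.06 in the controls. Control 1 was low and the other controls lay above every IUGR sample. The ratio was -0.21 ± 0.12 (SE, n = 4 arrays). Rplp1 had 16.12, 15.87, 16.09 and 16.01 in the IUGR samples and 15.85, 15.72, 15.82 and 15.98 in the controls, and Rplp2 had 16.51, 16.42, 16.53 and 15.80 against 16.46, 16.72, 16.75 and 16.53. The groups overlapped for these partners, which bind each other as a pair. The ratio was 0.18 ± 0.10 for Rplp1 and -0.30 ± 0.17 for Rplp2, and the array 3 ratio of Rplp2 was -0.96. With 1 array left out, Rplp0 ran from -0.32 to -0.11, Rplp1 from 0.08 to 0.27 and Rplp2 from -0.54 to -0.07. None of the 3 stalk genes passed the test (limma adjusted p = 0.368 for Rplp0 and Rplp1 and 0.377 for Rplp2).

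Rpl5 and Rpl11 carry the smallest of the ribosomal RNAs into the large subunit. The IUGR samples had log2 signals of 14.46, 14.78, 14.96 and 14.97 for Rpl5 and the controls 14.65, 15.13, 15.16 and 15.00. For Rpl11 these were 16.11, 16.06, 16.08 and 15.83 in the IUGR samples and 15.89, 16.33, 16.46 and 16.51 in the controls. In both genes control 1 overlapped the IUGR samples and the other controls lay above all of them. The ratios were -0.19 ± 0.15 and -0.28 ± 0.10 (SE, n = 4 arrays), with limma adjusted p of 0.480 and 0.339. The Rpl5 ratio came close to 0 without array 2 (0.004).

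Among the 19 genes mutated in Diamond-Blackfan anaemia, a failure of red cell formation caused by loss of 1 copy of a ribosomal protein gene, the median ratio was -0.019. At an unadjusted p under 0.05, 1 of the 19 lay above 0 (Rps26), against 7.13% of all features, and 1 below it (Rpl11), against 6.54%. Rps19, the gene most often affected, had array ratios of -0.02, -0.07, -0.22 and -0.05 and a mean of -0.09 ± 0.08 (SE, n = 4 arrays). Rps15a, below 0 on every array, had -0.02, -0.36, -0.39 and -0.04 and a mean of -0.20 ± 0.11. Rpl26, which also aids translation of p53 mRNA, had a mean of 0.11 ± 0.08. None of these 5 genes was called by the test.

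Paralogues, second copies that replace a standard protein in some tissues, had a median ratio of 0.073 over the 6 tested of 9 listed. Rpl22l1 had array ratios of 0.15, 0.41, 0.27 and -0.17 and a mean of 0.17 ± 0.11 (SE, n = 4 arrays), and its standard partner Rpl22 had -0.01, 0.38, 0.32 and 0.17 and a mean of 0.22 ± 0.10. Both genes were high on array 2. Rpl7l1 had a mean of -0.01 ± 0.08 and Rpl3 a mean of -0.02 ± 0.08. Rpl3l was not well above background in any of the 4 IUGR channels but was in 3 of the 4 control channels. Its mean log2 signals were 6.34 in controls and 6.24 in IUGR samples, and the groups overlapped (limma adjusted p = 0.468). Rpl39, a short protein that lines the exit tunnel, had ratios of 0.13, 0.38, 0.18 and 0.05 and a mean of 0.18 ± 0.09.

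Several members serve as reference genes in PCR. Over 8 such genes the median ratio was -0.061, with 0 above and 1 (Rpl13a) below 0 at an unadjusted p under 0.05, against 7.13% and 6.54% of all features. Rps9 had array ratios of -0.09, 0.23, 0.35 and 0.34 and a mean of 0.21 ± 0.09 (SE, n = 4 arrays), and Rpl32 had 0.23, -0.18, -0.32 and -0.12 and a mean of -0.10 ± 0.10. Rpl19 had 0.73, 0.71, -0.38 and -0.54 and a mean of 0.13 ± 0.08, and Rps29 had 0.42, 0.78, -0.57 and -0.66 and a mean of -0.01 ± 0.09. Both Rpl19 and Rps29 were above 0 on arrays 1 and 2 and below 0 on arrays 3 and 4, which differ in dye orientation and in the samples they hold together, so the part of each cannot be told apart. Rps29 spanned 1.44 and Rpl19 1.27 log2 units between the highest and lowest array.

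Among the other small subunit genes, Rps6, the protein that the ribosomal kinases phosphorylate, had log2 signals of 15.17, 15.21, 15.39 and 15.47 in the IUGR samples and 15.15, 15.34, 15.64 and 15.54 in the controls. The groups overlapped, and the ratio was -0.11 ± 0.08 (SE, n = 4 arrays). Rps3, which forms the mRNA entry site, had array ratios of 0.03, 0.20, -0.10 and -0.14, which centre on 0. Rps14 had 0.58, 0.48, -0.53 and -0.31 and a mean of 0.05 ± 0.08. Rps4x, the X-linked copy of Rps4, had a mean of 0.11 ± 0.09. Rpsa, the laminin receptor precursor of the small subunit, had -0.09, 0.14, 0.27 and 0.28 and a mean of 0.15 ± 0.08. Its groups overlapped, and its second probe gave 0.62 ± 0.22 with 1.00 and 1.16 on arrays 2 and 3.

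Repeat measurements of a gene by separate probes could differ in sign. Of the 86 names, 39 had 1 probe, 34 had 2, 10 had 3 and 3 had 4, and 47 genes had several probes that passed the filter. In 17 of these 47 genes the probes had ratios of opposite sign. Some of these were small gaps around 0, as in Rps29 with -0.01 and 0.00, and the share over all features was not counted. Among 82 pairs of probes to a gene, 11 shared a run of 20 bases or more and differed by a median of 0.07 and at most 0.12 on the log2 scale. The other 71 pairs differed by a median of 0.11 and at most 0.55. That largest gap was in Rpl6, a large subunit protein, where the brighter probe gave 0.23 ± 0.09 and the other -0.32 ± 0.10, with array ratios of 0.49, 0.68, -0.23 and -0.02 against -0.13, -0.46, -0.44 and -0.25. The Rpl6 and Rpl24 probes are shown because they are the pairs of opposite sign among the 9 genes at an unadjusted p under 0.05. The brighter Rpl6 probe, at chr12:36483874-36483932 of rn4, is shown by its first 30 bases, and its partner lies at chr12:36484386-36484445. The brighter Rpl24 probe lies at chr11:45628862-45628921 and its partner at chr11:45630662-45630721.
Rpl6 A_64_P127383: tgtaccctcacaaactggtgttctaattgt
Rpl6 A_64_P050327: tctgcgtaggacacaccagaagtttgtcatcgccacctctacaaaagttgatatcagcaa
Rpl24 A_43_P13936: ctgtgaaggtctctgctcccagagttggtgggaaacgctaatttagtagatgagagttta
Rpl24 A_44_P1014553: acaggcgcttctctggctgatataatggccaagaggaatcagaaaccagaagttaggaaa

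Other wide pairs were Rps16, with 0.05 ± 0.08 on the brighter probe and 0.42 ± 0.13 on the other, and Rps2, whose 4 probes ran from -0.09 to 0.31, with 0.10 ± 0.08 on the brightest. Tested as 148 separate rows of 22967, ribosomal protein probes had 10 above 0 at an unadjusted p under 0.05 (6.76%), against 7.12% of all probes, and 7 below 0 (4.73%), against 6.28%. Processed copies of these genes are scattered through the genome. A run of 30 bases was shared with a probe under another name by 30 member probes, which belong to 26 genes, and 29 member probes span more than 60 bases of rn4. Signal from a gene and from a near-identical copy cannot be told apart on these arrays.

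**Figure D3:**
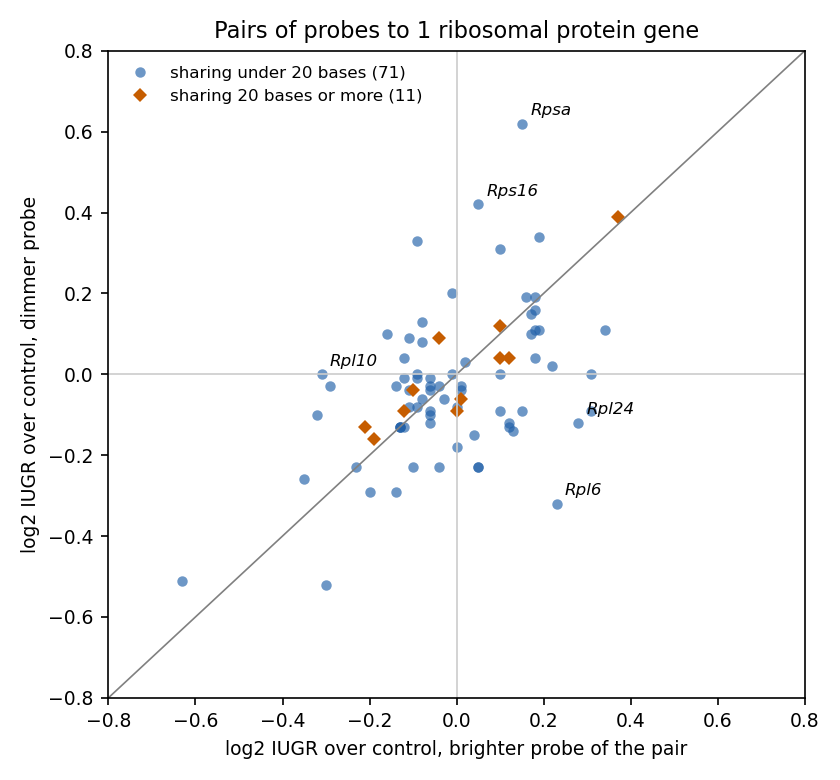
Log2 ratio of IUGR over control for the 82 pairs of probes to a ribosomal protein gene, with the brighter probe on the horizontal axis and the dimmer one on the vertical axis. The 11 pairs that share 20 bases or more lie within 0.12 of the diagonal, and Rpl6 and Rpl24 lie in the quadrant of opposite signs.

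The signals of these genes leaned towards Cy5. The arrays with IUGR in Cy5 and those with IUGR in Cy3 held different samples. A dye effect thus cannot be told apart here from differences between those samples. The fitted Cy5 over Cy3 difference had a median of 0.12 on the log2 scale over the 85 genes, with 65 above 0 (76.5%), against a median of 0.01 and 51.4% above 0 over all features. The Cy5 signal exceeded the Cy3 signal on all 4 arrays for 26 ribosomal protein genes (30.6%), against 8.95% of all features. The Cy3 signal did so for 5 (5.88%), against 7.25%, which were Rps4x, Rpl27, Rpl7l1, Rps4y2 and Rpl3. The features compared were not matched for signal, and the lean was not particular to this family. Ratios of Ins1, Ins2 and Iapp were also above 0 on arrays 1 and 2 and below 0 on arrays 3 and 4. For Ins2 they were 1.26, 1.72, -1.03 and -0.79. Those of Pdx1, Mafa, Slc2a2 and Nkx6-1 did not have this order. Within the family, the largest fitted dye differences, under the same limit, were 0.64 for Rpl41, 0.61 for Rps29 and 0.59 for Rpl19. None of the dye differences was called by limma (0 of 85 at an adjusted p under 0.05). Because each group was in each dye on 2 arrays, a constant dye difference cancels in the mean ratio.

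**Figure D4:**
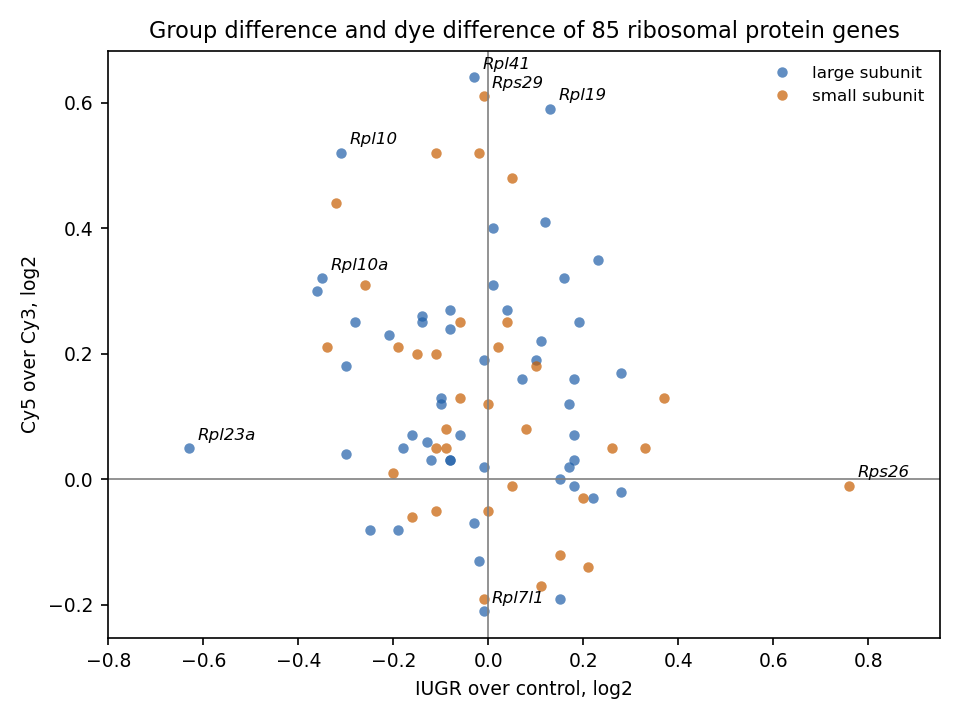
Fitted group difference (IUGR over control, horizontal) and dye difference (Cy5 over Cy3, vertical) of the 85 ribosomal protein genes, both in log2 units. Most points lie above 0 on the dye axis, led by Rpl41, Rps29 and Rpl19, while they spread to both sides of 0 on the group axis, from Rpl23a to Rps26.

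How high the family stood as a whole rested on the normalization. Loess removes a ratio that depends on signal, and these genes sit at the bright end of that curve. With loess fitted to the other spots alone, which was chosen after seeing the data, the median over the 85 genes was -0.017, and the array medians were 0.16, 0.08, -0.24 and -0.14. With each array centred on its median ratio in place of loess, the median was -0.409, with 82 of 85 genes below 0, and the array medians were 1.21, -0.50, -1.47 and -0.96. These followed the sign of the brightness difference between the channels on each array. The median over all features moved from 0.014 to -0.048 between these settings. In no setting that was run did limma call a ribosomal protein gene, and the smallest adjusted p of a member over the settings ran from 0.0723, without array 1, to 0.952, without array 3.

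**Figure D5:**
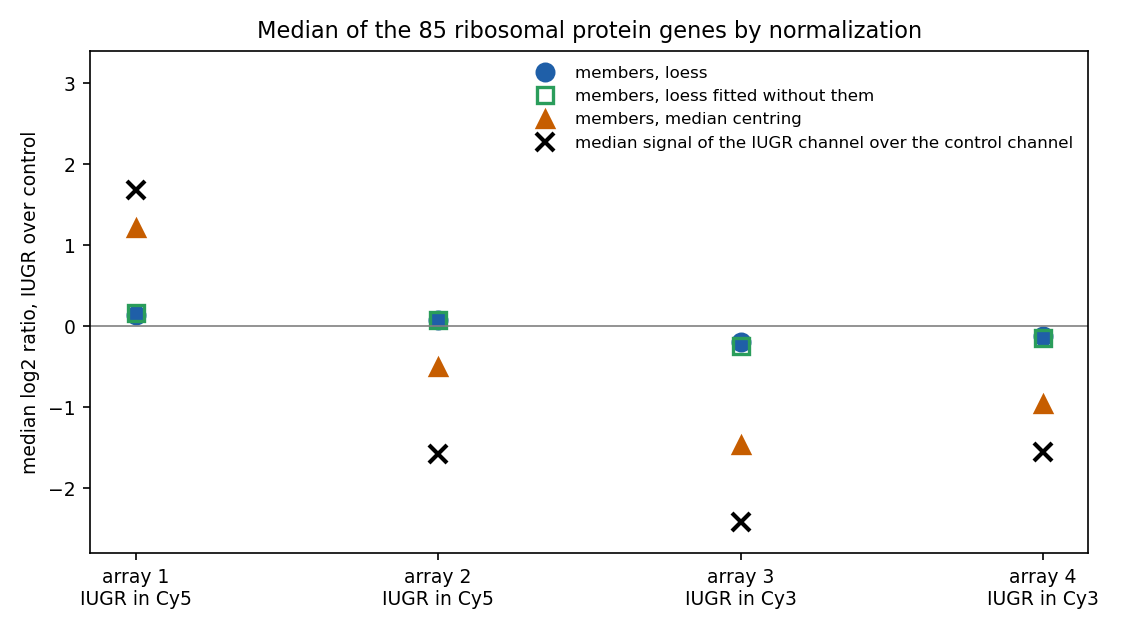
Median log2 ratio of the 85 ribosomal protein genes on each array under 3 normalizations, with the log2 ratio of the median channel signals as crosses. The loess medians stay near 0, and the median-centred values (1.21, -0.50, -1.47 and -0.96) have the sign of the crosses on every array.

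Across the 85 genes, which share arrays, dye and signal range and are not replicates, the ratios of arrays 3 and 4 correlated at r = 0.73 and those of arrays 1 and 2 at r = 0.46. These are the pairs with the same dye orientation. Across orientations r was -0.33 for arrays 1 and 3, -0.66 for arrays 1 and 4, 0.43 for arrays 2 and 3 and 0.02 for arrays 2 and 4. The same gene could thus be ordered oppositely on arrays 1 and 4.

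The promoters were examined for the TOP tract, the mark of mRNAs whose translation mTOR controls. RefSeq promoters of assembly GRCr8 were found for 67 of the member genes, with 68 start sites. A tract was counted where the annotated first base is C and at least 4 pyrimidines follow, read on the sense strand. It was at the start of 24 of the 68 (35.3%), against 2.63% of all 33469 promoters, and began within 5 bases of the start in 41 (60.3%), against 17.0%. In the 300 bases around the start, and on both strands, CTTCCG, the core of ETS family sites, was in 55.9% of member promoters against 16.6% of all. GGGCGG, the core of Sp family sites, was in 60.3% against 33.1%, and TATAAA was in 10.3% against 14.2%. Matches of different motifs can overlap, as CTTCCG can with the pyrimidine tract or with GGGCGG on the other strand.

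Windows from 30 bases before the start to 20 bases from the start onward are shown for members with the tract, chosen to cover the highest ratio, low ratios and the P stalk, with the tract in capitals. They lie at chr7:1643385-1643434 (Rps26), chrX:157205820-157205869 (Rpl10), chr20:6390503-6390552 (Rpl10a), chr12:46718371-46718420 (Rplp0), chr8:71290853-71290902 (Rplp1), chr20:4933715-4933764 (Rps18) and chrX:121195877-121195926 (Rpl39) of GRCr8.
Rps26: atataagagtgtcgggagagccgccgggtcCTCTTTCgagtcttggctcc
Rpl10: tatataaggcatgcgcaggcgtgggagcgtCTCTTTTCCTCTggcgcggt
Rpl10a: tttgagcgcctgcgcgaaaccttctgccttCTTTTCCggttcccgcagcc
Rplp0: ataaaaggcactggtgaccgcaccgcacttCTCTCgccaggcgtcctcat
Rplp1: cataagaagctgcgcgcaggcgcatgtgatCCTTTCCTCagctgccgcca
Rps18: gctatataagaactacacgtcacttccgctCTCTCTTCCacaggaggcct
Rpl39: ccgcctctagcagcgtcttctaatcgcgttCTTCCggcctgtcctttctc

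The 24 tested genes with a tract at the start had a median ratio of 0.018, with 12 above 0 and 12 below. The 43 with a promoter but no tract there had -0.017. The windows above belong to genes at both ends of the range, Rps26 at 0.76 and Rpl10a at -0.35.

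Ribosomal proteins with other names were close to the family. Fau, the ubiquitin-like fusion that gives a small subunit protein, had array ratios of 0.15, -0.44, -0.88 and -0.55 and a mean of -0.43 ± 0.13 (SE, n = 4 arrays). That order over the arrays is also that of Rpl13a and Rpl11. Gnb2l1, the scaffold Rack1 of the small subunit, had 0.20 ± 0.09. Neither was called by limma.

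The machinery that makes and uses ribosomes was also without a call, with 0 genes at an adjusted p under 0.05 in each list given here. The counts that follow are at an unadjusted p under 0.05, where 7.13% of all features lay above 0 and 6.54% below. Of 47 tested ribosome biogenesis genes (53 listed), 4 were above 0 and 1 below at an unadjusted p under 0.05, with a median of 0.082. Bop1, needed to process large subunit RNA, had 0.47 ± 0.14, and the helicase Ddx10 had -0.47 ± 0.16 (SE, n = 4 arrays). Npm1, the nucleolar chaperone, had -0.40 ± 0.16. RNA polymerase I and its factors (13 of 15 tested) had 0 in either direction and a median of -0.006.

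Among genes listed by name as translation initiation factors, 36 of 39 were tested. Of these, 4 were above 0 and 1 below at an unadjusted p under 0.05, and the median was -0.028. The scaffold Eif4g1 had 0.54 ± 0.17 and Eif3g had 0.41 ± 0.11, while the helicase Eif4a3 had -0.38 ± 0.14 (SE, n = 4 arrays). Eif4a3 is in the list by its name only, and Eif4a1 had 0.05 ± 0.09 and Eif4a2 -0.11 ± 0.09. Of the 12 elongation and release factors, 1 was above 0 and 0 below, with a median of -0.052. That gene was Eef2, which moves the ribosome along the mRNA, with array ratios of 0.11, 1.19, 1.18 and 0.55 and a mean of 0.75 ± 0.22. Eef1a1, which brings in the aminoacyl-tRNA, had -0.27 ± 0.13. Arrays 2 and 3 were the high ones for Eef2, as they were for Rps26.

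The list for mTOR signalling to translation also takes in Rps6ka kinases, Rps6ka2 among them. Of its 25 genes, 22 were tested, and 4 were above 0 and 0 below at an unadjusted p under 0.05, with a median of 0.08. The kinase Akt1 had array ratios of -0.18, 0.86, 1.36 and 0.45 and a mean of 0.62 ± 0.24 (SE, n = 4 arrays), and Rps6ka2, one of the kinases that the name rule leaves out, had 0.50 ± 0.12. Mtor itself had -0.05 ± 0.08. The aminoacyl-tRNA synthetases (19 of 20 tested) had 6 above 0 and 1 below at an unadjusted p under 0.05, with a median of 0.129. Yars had 0.63 ± 0.18 and Vars 0.35 ± 0.10, while Dars had the lowest ratio, -0.80 ± 0.29. With 1 array left out, Dars ran from -1.22 to -0.39, Akt1 from 0.36 to 0.88 and Eef2 from 0.48 to 1.03.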

How the data were processed

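Islet RNA of 4 IUGR and 4 control samples was compared on 4 two-colour arrays. Per the file headers, the scanner files were written by Agilent Feature Extraction, version 10.10.1.1. The deposited files hold mean spot signals, median local backgrounds and processed signals in units of intensity, a deposited log10 ratio of Cy5 over Cy3, and flags. A separate deposited value table gives log2 ratios per spot, made by the authors with limma per the submitters' processing notes, with settings that are not given in the sources used here. Set against the scanner values, these log2 ratios were Cy5 over Cy3, and they correlated across probes with loess ratios without background subtraction at r = 0.992, 0.997, 0.998 and 0.986 on arrays 1 to 4. Probe coordinates are on rn4, as the files give them.

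The analysis started from mean signals and used limma 3.58.1 in R 4.3.3. The normexp background correction had an offset of 50, and loess normalization within arrays gave control spots a weight of 0. Outlier spots were left out, an outlying local background was replaced by the median of that array and channel, and spots of a probe were averaged. Genes were represented by their brightest probe, and tested where all 4 arrays gave a value and 2 or more IUGR channels, or 2 or more control channels, were well above background. The model held the IUGR over control contrast and a dye term (2 residual and 2.75 prior degrees of freedom). Signals of single samples are separate channels after loess and quantile normalization of mean signals between arrays. The Rpl3l signal lay near background in both groups and is open to dye bias, so no bound on its fold is given.

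The members, lists, tests and rule for named genes were chosen with earlier results of these data known. The rule took members with 1 sign on all arrays (up to 8 per direction), a fixed set, the 3 with the widest range, those not above background, up to 5 with probes of opposite sign, and up to 3 per direction in each list. Rps16, Mtor and some genes listed beside a count fall outside it and were chosen after their values were seen, and some genes that the rule took are not reported here. Tested on simulated data for 20012 genes, the model called 2 of 50 genes shifted by 0.5 on the log2 scale, 22 of 50 shifted by 1 and 46 of 50 shifted by 2, with 1 false call. Alternatives covered background, normalization, filters, probes, dye, brightness, array weights, each array left out and replicate pairing.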

Additional observations from a re-analysis of the deposited data

Results flagged for a closer look

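Of 58 sets of 4 array ratios examined by Dixon's test, those of 57 genes and the median of the 85 ribosomal protein genes, 1 had an array far from the others. Rps6 had a log2 ratio of 0.06 on array 1, against -0.17, -0.18 and -0.15 on arrays 2 to 4, a gap of 0.887 of the range, past Dixon's 95% critical value. Chance flags about 1 in 20 such sets.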

How the results depend on the processing

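The 85 ribosomal protein genes had 0 calls under every alternative run, and all genes had 0 calls except under median centring (15) and with channel brightness as a covariate (8). The median of the ribosomal protein genes moved to -0.409 under median centring. It lay between -0.030 and 0.011 under the other alternatives that kept all arrays, and between -0.054 and 0.010 with 1 array left out. Median centring left 0 genes above 0 and 0 below 0 on all 4 arrays, and the processed signals gave 5 below. Of the 57 genes named with a value, 28 kept their direction under each alternative that gave them a value, 25 of them under all 20. With outlying backgrounds left out 52 of the 57 were tested, and with all 8 channels well above background 56. With some array left out, 42 of the 57 moved by over 1.5 times. Median centring turned the sign of Rpl24 (-0.14), Rps27a (-0.03), Rpl36al (-0.11), Rps2-ps7 (-0.09), Rps25 (-0.03), Rpl36 (-0.22), Rpl37 (-0.20), Rplp1 (-0.22), Rpl3l (0.49), Rpl22 (-0.17), Rpl22l1 (-0.19), Rpl39 (-0.21), Rpsa (-0.24), Rpl6 (-0.17), Rps9 (-0.20), Rpl19 (-0.27), Rps16 (-0.36), Rpl26 (-0.31), Rps14 (-0.34), Rps4x (-0.27), Rps2 (-0.31), Gnb2l1 (-0.17) and Mtor (0.20). The brightness covariate turned Rpl5 (0.04), Rpl32 (0.03), Rpl3 (0.04) and Rpl7l1 (0.03). The mean of a gene's probes turned Rpl6 (-0.04), Rpl19 (-0.0038) and Rps14 (-0.14). Scale normalization turned Rps29 (0.02), and the processed signals turned Rps29 (0.00026) and Rps3 (0.02). Outlying backgrounds turned Rps29 (0.0011) and Rps3 (0.0044) whether left out or kept as measured, and Rps14 (-0.22) when left out. With 1 array left out at a time, values crossed 0 for Rpl5 (-0.39 to 0.004), Rpl32 (-0.20 to 0.0048), Rpl3 (-0.08 to 0.04), Rpl7l1 (-0.06 to 0.03), Rps29 (-0.10 to 0.08), Rps3 (-0.04 to 0.04), Rps16 (-0.0038 to 0.10) and Rps14 (-0.00094 to 0.11). The cause was not tested. Samples with the same replicate number did not deviate together (r = -0.05, -0.28, 0.09 and -0.17). They were on different arrays and in opposite dyes, so these values cannot show whether the numbers pair them. With the replicate block, 0 ribosomal protein genes were called and their median was -0.013. With the block 7 of them had an unadjusted p under 0.05, and without it 9. Of the 149 probes of these genes, 144 were well above background in all 8 channels, and the number of arrays, 4, limits the precision.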
